A study of Mus musculus with 18 samples.

Results

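The genes described here are 41 genes that mammalian cells switch on in the G2 and M phases of the cell cycle, chosen as a list of named genes out of the 53090 gene IDs in the deposited count table. They were counted in beta cells, the insulin-secreting cells of the pancreatic islet, sorted from mice that lack the insulin receptor in the liver (LIRKO) and from control mice (Ctrl). Every one of the 41 has a gene ID in the table, and 40 had enough reads to be tested. The exception, Kif11, is listed at 0 counts in all 18 libraries and is not described further. Chow-fed Ctrl mice gave 6 libraries and chow-fed LIRKO mice 4, while mice on HFD, read as high-fat diet, gave 5 (Ctrl) and 3 (LIRKO). Islets were cultured overnight and dispersed before sorting on scatter and on the cells' own fluorescence, so the transcripts are those of cells held in culture. The sources used here give no age, sex, time on diet, targeted allele or promoter that drives the deletion, and do not say whether the libraries of a group come from separate animals. Each p-value thus measures only the spread between libraries, which may be technical.

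Mitotic genes form a relay. Cyclins bound to CDK1 start mitosis, condensation and topoisomerase activity prepare the chromosomes, kinetochores and motors attach and move them on the spindle, a checkpoint holds anaphase until every chromosome is attached, and the anaphase promoting complex then ends mitosis by having cyclins and securin destroyed. Most of these genes are repressed in resting cells by the DREAM complex at a promoter element called CHR. They are activated by NF-Y at CCAAT boxes and, in G2, by B-MYB and FOXM1 with the MuvB core at the CHR. Adult beta cells divide rarely, and mice that resist insulin enlarge their beta cell mass, so these transcripts are widely used as a readout of beta cell division. In RNA from a population of cells, more dividing cells and more RNA per dividing cell cannot be told apart.

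Beta cell libraries from chow-fed LIRKO mice held more mitotic RNA than those from chow-fed Ctrl mice. Of the 40 tested genes 14 rose and 0 fell against Ctrl chow in the edgeR test, where 2.95% of all 19284 genes tested were higher. The median log2 change was 1.18 over the 40 genes and −0.02 over all genes. Those that rose span the mitotic apparatus, from Mki67, Top2a and Cdk1 through the kinetochore genes Cenpe, Ndc80 and Nuf2 to the spindle genes Tpx2, Nusap1, Hmmr and Aspm. In 28 of the 40, every LIRKO chow library lay above every Ctrl chow library, against 6.46% of all genes.

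Most of the mitotic genes had lower levels in LIRKO mice on HFD than on chow, with log2 changes below 0 in 39 of the 40, all but Aurka. Against LIRKO chow, 15 of the 40 genes fell in LIRKO HFD and 0 rose, where 0.975% of all genes were lower. The median log2 change was −1.42, against 0.03 over all genes. In 34 of the 40, every LIRKO HFD library lay below every LIRKO chow library, against 18.3% of all genes. Both the 34 and the 39 include Kif2c, which met the filter on low counts only through the LIRKO chow libraries. Its place in these counts is no support, while the 14 genes that rose and the 15 that fell met the filter without those libraries. The comparisons share the 4 LIRKO chow libraries, so the rise and the fall are not independent observations, and each gene's values are given side by side below.

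**Figure D1:**
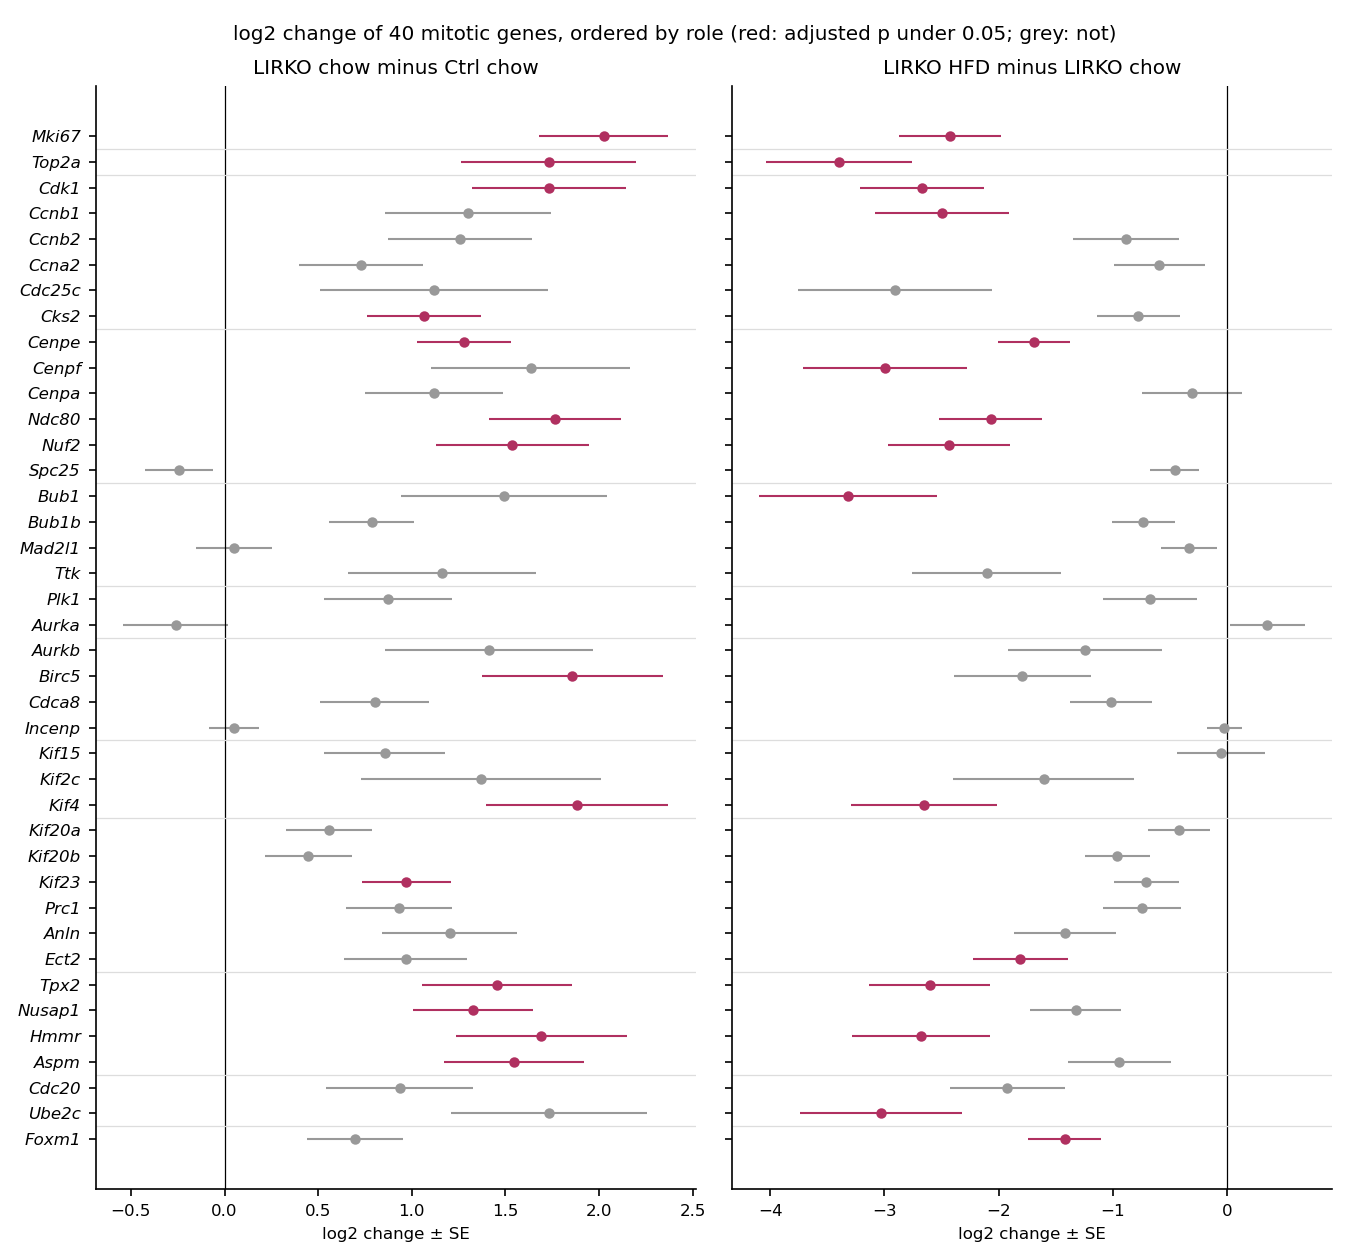
The log2 change with its standard error (SE) is plotted for 40 mitotic genes, grouped by role, for LIRKO chow against Ctrl chow on the left and for LIRKO HFD against LIRKO chow on the right. Red marks the 14 and 15 genes with an adjusted p under 0.05 in edgeR, and grey the others. Spc25, Mad2l1, Aurka and Incenp lie near 0 on the left.

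LIRKO chow replicates 1 and 2 resembled each other more than other libraries of a group do, as did replicates 3 and 4: the scaled median absolute deviation of their log2 ratio over genes was 0.107 and 0.124, and 0.206 or more in all other pairs within a group. With each of these pairs summed into 1 library, Mki67 alone of the mitotic genes still passed on chow (log2 change 2.03, adjusted p = 0.032, edgeR), 0 mitotic genes passed for HFD against chow in LIRKO, and the medians were 1.19 and −1.42. Calls over all genes on chow, in either direction, were 5.15% in the main fit and 0.976% with the pairs summed. On chow, 7 genes passed without Ctrl chow replicate 1, 3 or 6, 6 without LIRKO chow replicate 1 and 4 without LIRKO chow replicate 2, 3 or 4, and Mki67, Cenpe and Ndc80 passed in every fit that left out 1 library. Of all genes, 3.73% to 4.79% passed in the fits with 7 genes, 3.31% in that with 6 and 2.25% to 3.65% in those with 4. For HFD against chow in LIRKO, 2 genes (Mki67 and Top2a) passed without LIRKO chow replicate 1 or 2, 1 (Cenpe) without LIRKO HFD replicate 2, and 0 without LIRKO HFD replicate 1 or 3. The shares of all genes in those LIRKO fits are not given here. Leaving out 1 library moved the medians to between 1.10 and 1.29 on chow and between −1.48 and −1.39 in LIRKO.

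Library depth was between 19490235 and 51714775 counted reads. In Ctrl HFD, replicates 1 and 2 had the lowest totals and the largest shares of the nuclear RNA Malat1 (1.37% and 1.06%, against at most 0.600% elsewhere). Levels are given as CPM, counts per 1e6 reads on library sizes scaled by TMM, and most mitotic genes sat near 1 CPM. The median over the 40 genes was 2.41, 2.63, 2.16 and 2.24 CPM in the LIRKO chow libraries, 0.769, 0.916 and 1.08 in LIRKO HFD, and 0.681 to 1.51 in Ctrl chow. In Ctrl HFD it was 2.13 in replicate 4 and 0.675 to 0.938 in the other 4 libraries. Ctrl HFD replicate 4 thus stood just below the lowest LIRKO chow library, and it was the highest of its group for 34 of the 40 genes.

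The promoters of these genes carry shared letters. Windows from 250 bases before to 50 bases after the start of transcription were taken from RefSeq on GRCm38.p6 for 34 of the 41 genes and for 27025 genes in all, and were searched on both strands. TTTGAA, the core of the CHR element, was present in 26 of the 34 (76.5%) and in 18.1% of all genes. CCAAT, the box bound by NF-Y, was present in 73.5% and 37.9%, and both motifs together in 61.8% and 7.12%. The CHR variant TTTAAA was present in 29.4% of the mitotic genes (13.2% of all) and the variant TTCGAA in 8.82% (1.57% of all). The E2F site TTTCGCGC was found in 2.94% (0.318% of all). A match is a run of letters and not a measured binding site. Windows of 120 bases are shown 5′ to 3′ on the strand of the gene, for 6 genes with different roles in mitosis and for Spc25. Capitals mark the CHR core, its variants and the CCAAT box, on either strand. Of the genes shown, Cdc20 and Spc25 passed in neither of the comparisons above.
Mki67, −200 to −81 from the start, chr7:135716460-135716579, minus strand: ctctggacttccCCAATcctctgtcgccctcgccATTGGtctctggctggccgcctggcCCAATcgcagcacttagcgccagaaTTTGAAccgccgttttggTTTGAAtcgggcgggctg
Cdk1, −120 to −1 from the start, chr10:69352913-69353032, minus strand: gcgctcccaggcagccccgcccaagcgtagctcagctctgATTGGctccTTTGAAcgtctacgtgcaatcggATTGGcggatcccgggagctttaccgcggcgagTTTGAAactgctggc
Top2a, −120 to −1 from the start, chr11:99024190-99024309, minus strand: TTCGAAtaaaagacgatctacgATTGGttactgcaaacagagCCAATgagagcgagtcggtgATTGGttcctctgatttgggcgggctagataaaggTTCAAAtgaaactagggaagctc
Ube2c, −120 to −1 from the start, chr2:164769809-164769928, plus strand: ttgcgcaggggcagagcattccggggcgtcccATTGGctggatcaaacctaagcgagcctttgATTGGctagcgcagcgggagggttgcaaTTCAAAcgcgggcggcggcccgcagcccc
Cdc20, −120 to −1 from the start, chr4:118437344-118437463, minus strand: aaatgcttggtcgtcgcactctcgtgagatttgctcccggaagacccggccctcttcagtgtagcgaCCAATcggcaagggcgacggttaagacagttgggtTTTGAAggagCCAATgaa
Ccnb1, −120 to −1 from the start, chr13:100786487-100786606, minus strand: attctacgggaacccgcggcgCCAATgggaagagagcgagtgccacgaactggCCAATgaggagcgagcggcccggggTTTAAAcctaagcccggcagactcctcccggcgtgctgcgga
Spc25, −120 to −1 from the start, chr2:69206214-69206333, minus strand: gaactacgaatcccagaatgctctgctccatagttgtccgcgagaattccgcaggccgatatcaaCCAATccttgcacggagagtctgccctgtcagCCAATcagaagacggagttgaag
In Mki67, Cdk1, Top2a, Ube2c and Cdc20 the printed window holds the CHR core and a CCAAT box, and in Ccnb1 it holds TTTAAA in place of the core. In Spc25 both CCAAT boxes are in the printed window, and TTTGAA lies downstream of the start, at bases 25 to 30. TTTGAA was present in 8 of the 13 with a window that rose on chow and in 17 of the 20 tested ones that did not pass.

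Coordinates in the following are those of GENCODE M21 on GRCm38. Mki67 encodes Ki-67, the protein coat of mitotic chromosomes and the standard proliferation marker (ENSMUSG00000031004, chromosome 7, 135689784 to 135716361). It stood at 17.9, 16.9, 12.8 and 12.1 CPM in LIRKO chow (values of a group follow the replicate numbers here and below) and at 2.05 to 6.04 (median 2.98) in Ctrl chow. On HFD the libraries held 3.77, 3.12, 2.96, 9.79 and 3.65 CPM in Ctrl and 2.90, 2.55 and 2.88 in LIRKO. All LIRKO chow libraries were above all Ctrl chow and all LIRKO HFD libraries, and Ctrl HFD replicate 4 stood between them and the rest. Mki67 rose on chow in LIRKO (log2 change 2.03, SE 0.34, adjusted p = 0.00183, edgeR) and fell from chow to HFD in LIRKO (log2 change −2.43, SE 0.45, adjusted p = 0.0127). Of the 72 gene results in all lists that passed and are named here, Mki67 on chow was the only one to pass under each of the alternatives tried.

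Top2a encodes topoisomerase II alpha, which untangles sister DNA before it is separated (ENSMUSG00000020914, chromosome 11, 98992943 to 99024189). Its levels were 13.2, 12.9, 12.2 and 12.7 CPM in LIRKO chow and 1.67 to 7.30 (median 3.13) in Ctrl chow. In LIRKO HFD they were 0.842, 1.31 and 1.45, and in Ctrl HFD 2.53, 1.44, 1.83, 9.04 and 1.80. All LIRKO HFD libraries were below all chow libraries of both genotypes, and Ctrl HFD replicate 4 was again far above the rest of its group. Top2a rose on chow in LIRKO (log2 change 1.73, SE 0.47, adjusted p = 0.0376, edgeR) and fell by 3.40 on the log2 scale on HFD in LIRKO (SE 0.64, adjusted p = 0.0148), a ratio of 10.6 between LIRKO chow and LIRKO HFD.

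Cdk1 encodes the kinase that starts mitosis (ENSMUSG00000019942, chromosome 10, 69335146 to 69352938). It was counted at 7 to 101 reads per library, so single libraries are imprecise. LIRKO chow libraries held 1.74, 2.52, 1.82 and 2.004 CPM, and Ctrl chow libraries 0.421 to 0.801 (median 0.600). On HFD, Ctrl libraries held 0.347, 0.326, 0.296, 1.76 and 0.396 CPM and LIRKO libraries 0.232, 0.305 and 0.401. Every LIRKO chow library exceeded every Ctrl chow and every LIRKO HFD library, while 4 of 5 Ctrl HFD libraries were below the lowest Ctrl chow library. Cdk1 rose on chow in LIRKO (log2 change 1.73, SE 0.41, adjusted p = 0.0186, edgeR) and fell on HFD in LIRKO (log2 change −2.67, SE 0.54, adjusted p = 0.019).

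Among the partners of CDK1, Ccnb1 encodes cyclin B1, the cyclin that drives entry into mitosis (ENSMUSG00000041431, chromosome 13, 100778650 to 100786570). It was at 2.08, 1.15, 1.14 and 1.43 CPM in LIRKO chow and 0.368 to 0.968 (median 0.580) in Ctrl chow. In Ctrl HFD it was at 0.0496, 0.0466, 0.266, 0.630 and 0.343, where the lowest values are 1 read each, and in LIRKO HFD at 0.290, 0.174 and 0.301. The chow groups did not overlap, but the difference missed the threshold (log2 change 1.30, SE 0.44, adjusted p = 0.105, edgeR). Ccnb1 fell on HFD in LIRKO (log2 change −2.50, SE 0.59, adjusted p = 0.0329, edgeR). Cks2, a small subunit that docks on CDK1 (ENSMUSG00000062248, chromosome 13, 51645232 to 51650660), was at 1.27, 1.12, 1.10 and 0.933 CPM in LIRKO chow, 0.395 to 0.878 (median 0.457) in Ctrl chow, 0.347, 0.791, 0.592, 0.850 and 0.290 in Ctrl HFD and 0.581, 0.654 and 0.702 in LIRKO HFD. LIRKO chow lay above both other groups it was compared with, and Cks2 rose on chow (log2 change 1.07, SE 0.30, adjusted p = 0.0496, edgeR) with an HFD difference in LIRKO that did not pass (log2 change −0.77, SE 0.37, adjusted p = 0.3). The other 3 genes of this set passed in neither comparison: cyclin B2 (Ccnb2) had log2 changes of 1.26 and −0.88, cyclin A2 (Ccna2) of 0.73 and −0.59, and the phosphatase Cdc25c, which activates CDK1, of 1.12 and −2.91. Cdc25c was read at most 29 times in a library, and 510 bases of Ccna2 exon are shared with Exosc9 on the opposite strand.

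**Figure D2:**
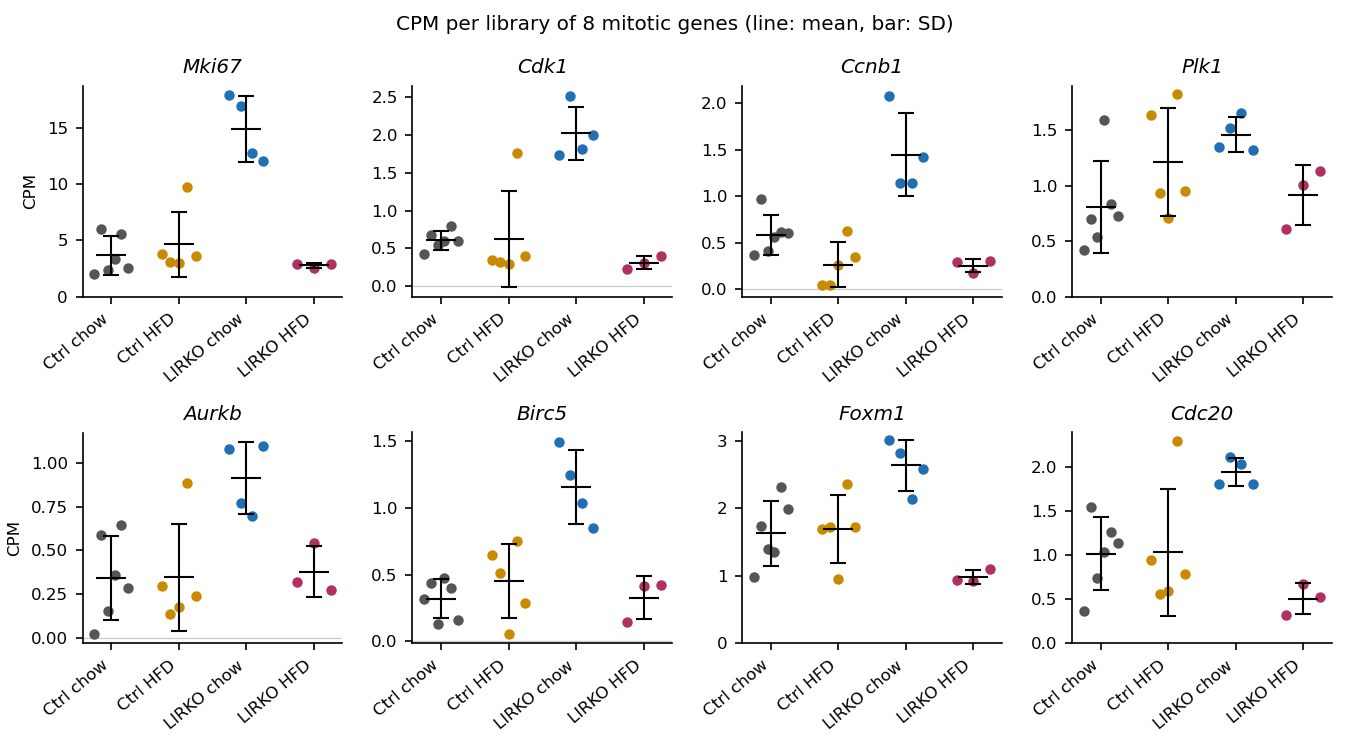
CPM of 8 mitotic genes is plotted for each library by group. Points are libraries, the line is the group mean and the bar the SD (3 to 6 libraries a group). For Mki67, Cdk1, Ccnb1, Aurkb, Birc5 and Cdc20 the LIRKO chow points lie above all Ctrl chow points, and the highest Ctrl HFD point is replicate 4.

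Kinetochores are the protein plates that join chromosomes to microtubules, and 3 of their 6 genes rose on chow while 4 fell on HFD in LIRKO. Cenpe, a motor that carries chromosomes to the spindle equator (ENSMUSG00000045328, chromosome 3, 135212537 to 135273611), was at 3.04, 2.97, 2.50 and 2.31 CPM in LIRKO chow and 0.886 to 1.39 (median 1.12) in Ctrl chow. It was at 0.871, 1.003 and 0.626 in LIRKO HFD and 1.19, 0.791, 1.24, 2.14 and 0.951 in Ctrl HFD. Each LIRKO chow library was above every other library, with a rise on chow (log2 change 1.28, SE 0.25, adjusted p = 0.00515, edgeR) and a fall on HFD (log2 change −1.69, SE 0.32, adjusted p = 0.0136). Ndc80, the microtubule-gripping rod of the outer kinetochore (ENSMUSG00000024056, chromosome 17, 71496100 to 71526857), held 2.11, 2.64, 1.94 and 1.89 CPM in LIRKO chow, 0.359 to 1.11 (median 0.533) in Ctrl chow, 0.745, 0.186, 0.503, 0.913 and 0.370 in Ctrl HFD and 0.551, 0.523 and 0.451 in LIRKO HFD. Each LIRKO chow library was above all 14 others. Ndc80 rose on chow (log2 change 1.76, SE 0.35, adjusted p = 0.00622, edgeR) and fell on HFD in LIRKO (log2 change −2.07, SE 0.45, adjusted p = 0.0237). Nuf2, which pairs with Ndc80 in the same rod (ENSMUSG00000026683, chromosome 1, 169497934 to 169531464), held 2.33, 2.62, 2.08 and 1.62 CPM in LIRKO chow, 0.412 to 1.29 (median 0.659) in Ctrl chow, 0.347, 0.186, 0.237, 1.13 and 0.449 in Ctrl HFD and 0.290, 0.392 and 0.501 in LIRKO HFD. It showed the same separation of LIRKO chow from the other 14 libraries, with changes of log2 change 1.54, SE 0.41, adjusted p = 0.0342 on chow and log2 change −2.44, SE 0.53, adjusted p = 0.0245 on HFD in LIRKO (edgeR).

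Cenpf, a large protein of the outer kinetochore that appears in G2 (ENSMUSG00000026605, chromosome 1, 189640606 to 189688086), was at 3.80, 2.97, 2.18 and 2.69 CPM in LIRKO chow and 0.489 to 1.85 (median 0.791) in Ctrl chow. It was at 0.496, 0.279, 0.266, 2.46 and 0.290 in Ctrl HFD and 0.261, 0.414 and 0.401 in LIRKO HFD. The chow groups did not overlap, yet the difference missed the threshold (log2 change 1.64, SE 0.53, adjusted p = 0.0856, edgeR). Cenpf fell on HFD in LIRKO (log2 change −3.00, SE 0.72, adjusted p = 0.0355, edgeR). Cenpa, the histone H3 variant that marks centromeres, had log2 changes of 1.12 on chow and −0.30 on HFD in LIRKO, neither past the threshold.

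Spc25 encodes a subunit of the NDC80 complex, the same rod that Ndc80 and Nuf2 form (ENSMUSG00000005233, chromosome 2, 69193895 to 69206194). It was at 166, 176, 125 and 123 CPM in LIRKO chow and 145 to 224 (median 166) in Ctrl chow. On HFD, Ctrl libraries held 98.8, 116, 115, 111 and 143 CPM and LIRKO libraries 153, 79.7 and 90.1. The chow groups overlapped (log2 change −0.24, SE 0.18, adjusted p = 0.516, edgeR), and so did chow and HFD in LIRKO (log2 change −0.46, SE 0.22, adjusted p = 0.3). In Ctrl, every HFD library was below every chow library and Spc25 fell by 0.58 on the log2 scale (SE 0.17, adjusted p = 0.045, edgeR). The start of Spc25 lies 4879 bases from that of G6pc2, a glucose-6-phosphatase gene of beta cells on the opposite strand, whose mean level in Ctrl was 1352 CPM (SD 278, n = 6) on chow and 743 (SD 119, n = 5) on HFD. In LIRKO, G6pc2 stood at 1180 CPM (SD 152, n = 4) on chow and at 717 (SD 274, n = 3) on HFD. Both genes were lower on HFD in Ctrl (G6pc2 log2 change −0.86, adjusted p = 0.0279, edgeR), and the part of the neighbour in the Spc25 reads was not tested.

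The spindle checkpoint genes delay anaphase, and 0 of the 4 rose on chow. Bub1, a kinase that marks unattached kinetochores (ENSMUSG00000027379, chromosome 2, 127801122 to 127831865), was at 1.42, 1.12, 0.918 and 1.18 CPM in LIRKO chow and 0.0772 to 0.821 (median 0.308) in Ctrl chow. It was at 0.0993, 0.0466, 0.178, 0.504 and 0.106 in Ctrl HFD and 0.0290, 0.174 and 0.125 in LIRKO HFD, where the lowest value is 1 read. LIRKO chow was above every other library, and Bub1 fell on HFD in LIRKO (log2 change −3.32, SE 0.78, adjusted p = 0.0318, edgeR), while the chow difference did not pass (log2 change 1.49, SE 0.55, adjusted p = 0.137). The log2 changes of the other checkpoint genes did not pass: the kinase-like Bub1b (BUBR1) had 0.79 on chow and −0.73 on HFD in LIRKO, the kinase Ttk (MPS1) 1.16 and −2.10, and Mad2l1, the MAD2 protein that holds CDC20, 0.05 and −0.33.

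The mitotic kinases PLK1 and Aurora A mature centrosomes and the spindle, and neither gene passed in any comparison. Plk1 (ENSMUSG00000030867, chromosome 7, 122159439 to 122169873) was at 1.35, 1.52, 1.66 and 1.32 CPM in LIRKO chow, 0.421 to 1.60 (median 0.716) in Ctrl chow, 1.64, 0.931, 0.710, 1.83 and 0.951 in Ctrl HFD and 0.610, 1.003 and 1.13 in LIRKO HFD. Ctrl chow replicate 4 held as much Plk1 as LIRKO chow, and the difference was log2 change 0.87, SE 0.34, adjusted p = 0.163 (edgeR). Without that replicate Plk1 passed on chow. Aurka stood at 7.14 to 9.53 CPM in LIRKO chow and 6.60 to 15.2 in Ctrl chow, with log2 changes of −0.26 on chow and 0.35 on HFD in LIRKO.

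The chromosomal passenger complex corrects faulty attachments and later helps to divide the cell, and 1 of its 4 genes rose on chow. That gene was Birc5, which encodes survivin (ENSMUSG00000017716, chromosome 11, 117849251 to 117855743), at 1.49, 1.25, 1.04 and 0.851 CPM in LIRKO chow and 0.129 to 0.479 (median 0.358) in Ctrl chow. It was at 0.645, 0.512, 0.0592, 0.756 and 0.290 in Ctrl HFD and 0.145, 0.414 and 0.426 in LIRKO HFD. LIRKO chow was above all other libraries, and Birc5 rose (log2 change 1.86, SE 0.48, adjusted p = 0.0314, edgeR), while its HFD difference in LIRKO did not pass (log2 change −1.79, SE 0.60, adjusted p = 0.136). The kinase of the complex, Aurkb (ENSMUSG00000020897, chromosome 11, 69045647 to 69051664), was at 1.08, 0.773, 0.699 and 1.10 CPM in LIRKO chow, 0.0263 to 0.647 (median 0.322) in Ctrl chow, 0.298, 0.140, 0.178, 0.882 and 0.238 in Ctrl HFD and 0.319, 0.545 and 0.276 in LIRKO HFD. Its chow groups did not overlap, but with as little as 1 read in a Ctrl chow library the log2 change of 1.41 (SE 0.56) did not pass, nor did that of −1.24 on HFD in LIRKO. Cdca8 (borealin) had 0.80 and −1.01, and the scaffold Incenp had 0.05 (SE 0.13) on chow, with 10.2 to 11.8 CPM in LIRKO chow and 7.81 to 12.9 in Ctrl chow.

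Of the motors that build and move the spindle, 3 were tested. Kif4, a chromosome-bound motor that shapes condensed chromosomes and the spindle midzone (ENSMUSG00000034311, chromosome X, 100625737 to 100727214), was at 1.42, 1.82, 1.44 and 1.46 CPM in LIRKO chow and 0.129 to 0.733 (median 0.393) in Ctrl chow. It was at 0.149, 0.0931, 0.355, 1.10 and 0.290 in Ctrl HFD and 0.203, 0.240 and 0.276 in LIRKO HFD. LIRKO chow was above every other library, with a rise on chow (log2 change 1.88, SE 0.48, adjusted p = 0.0294, edgeR) and a fall on HFD (log2 change −2.66, SE 0.64, adjusted p = 0.0364). Kif4 shares 15.1% of its exon length with Pdzd11 on the other strand, and the sources used here do not give the strand setting of the counting. Kif15, a motor that helps to keep the spindle bipolar (ENSMUSG00000036768, chromosome 9, 122951046 to 123018733), was at 2.13, 2.59, 3.08 and 2.85 CPM in LIRKO chow, 0.665 to 1.96 (median 1.76) in Ctrl chow, 4.77, 4.19, 2.04, 1.89 and 2.11 in Ctrl HFD and 2.03, 3.01 and 2.68 in LIRKO HFD. Its highest values were Ctrl HFD replicates 1 and 2, the libraries of low depth and high Malat1. Kif15 rose on HFD in Ctrl (log2 change 1.02, SE 0.31, adjusted p = 0.0476, edgeR), and without those 2 libraries it did not pass. Kif2c, a motor that takes microtubules apart, met the filter on low counts only through the LIRKO chow libraries and had log2 changes of 1.37 and −1.60, neither past the threshold.

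All 4 spindle assembly genes rose on chow, and 2 of them fell on HFD in LIRKO. Tpx2, which activates Aurora A on microtubules (ENSMUSG00000027469, chromosome 2, 152847964 to 152895321), was at 5.58, 5.21, 4.71 and 4.58 CPM in LIRKO chow and 0.618 to 2.68 (median 2.03) in Ctrl chow. It was at 0.645, 0.419, 0.859, 2.55 and 0.924 in Ctrl HFD and 0.697, 0.894 and 0.877 in LIRKO HFD. LIRKO chow was far above the other groups, with changes of log2 change 1.45, SE 0.40, adjusted p = 0.0415 on chow and log2 change −2.60, SE 0.53, adjusted p = 0.019 on HFD in LIRKO (edgeR). Hmmr, a microtubule-binding partner of TPX2 (ENSMUSG00000020330, chromosome 11, 40701395 to 40733422), held 2.25, 2.29, 2.38 and 2.17 CPM in LIRKO chow, 0.283 to 1.08 (median 0.695) in Ctrl chow, 0.347, 0.140, 0.355, 1.48 and 0.290 in Ctrl HFD and 0.377, 0.305 and 0.376 in LIRKO HFD. Its LIRKO chow values were close together and above all others, and it rose on chow (log2 change 1.69, SE 0.46, adjusted p = 0.0376, edgeR) and fell on HFD (log2 change −2.68, SE 0.61, adjusted p = 0.0283). Nusap1, which bundles microtubules near chromosomes (ENSMUSG00000027306, chromosome 2, 119618298 to 119651244), held 2.50, 3.29, 2.81 and 2.63 CPM in LIRKO chow, 0.665 to 1.60 (median 1.12) in Ctrl chow, 0.596, 0.698, 1.30, 2.20 and 1.37 in Ctrl HFD and 1.04, 1.13 and 1.18 in LIRKO HFD. LIRKO chow did not overlap with the other groups. Nusap1 rose on chow (log2 change 1.33, SE 0.32, adjusted p = 0.0211, edgeR), and its HFD difference in LIRKO did not pass (log2 change −1.33, SE 0.40, adjusted p = 0.0947). Aspm, a protein of the spindle poles (ENSMUSG00000033952, chromosome 1, 139454772 to 139494091), held 2.20, 1.55, 1.68 and 2.06 CPM in LIRKO chow, 0.317 to 0.925 (median 0.656) in Ctrl chow, 0.645, 0.279, 0.799, 1.54 and 0.766 in Ctrl HFD and 0.465, 1.09 and 1.35 in LIRKO HFD. The lowest LIRKO chow library was just above Ctrl HFD replicate 4, and Aspm rose on chow (log2 change 1.55, SE 0.37, adjusted p = 0.0202, edgeR) with an HFD difference in LIRKO of log2 change −0.94, SE 0.45, adjusted p = 0.303 that did not pass.

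Cytokinesis, the splitting of the cell, is run from the central spindle, and 1 of 6 genes rose on chow while another fell on HFD in LIRKO. Kif23, the motor of centralspindlin (ENSMUSG00000032254, chromosome 9, 61915905 to 61946774), was at 3.11, 3.59, 3.02 and 3.49 CPM in LIRKO chow and 0.953 to 2.37 (median 1.67) in Ctrl chow. It was at 2.48, 1.91, 2.01, 3.59 and 2.09 in Ctrl HFD and 1.66, 2.16 and 2.25 in LIRKO HFD. The chow groups were separate, though Ctrl HFD replicate 4 held as much as LIRKO chow, and Kif23 rose (log2 change 0.97, SE 0.24, adjusted p = 0.0212, edgeR) with no passing HFD difference in LIRKO (log2 change −0.70, SE 0.29, adjusted p = 0.219). Ect2, which switches on RHOA at the cleavage furrow (ENSMUSG00000027699, chromosome 3, 27097222 to 27153878), was at 3.53, 4.32, 4.41 and 4.31 CPM in LIRKO chow, 1.48 to 2.81 (median 2.08) in Ctrl chow, 0.546, 0.652, 2.04, 2.71 and 1.45 in Ctrl HFD and 1.16, 1.05 and 1.33 in LIRKO HFD. LIRKO chow was above all others, and Ect2 fell on HFD in LIRKO (log2 change −1.81, SE 0.42, adjusted p = 0.0306, edgeR), while the chow difference missed the threshold (log2 change 0.97, SE 0.33, adjusted p = 0.101). The other 4 did not pass in either comparison, with log2 changes on chow and on HFD in LIRKO of 0.93 and −0.74 for the microtubule bundler Prc1, 1.20 and −1.42 for anillin (Anln), 0.56 and −0.42 for Kif20a and 0.45 and −0.96 for Kif20b. Of the Kif20a exon bases, 29.3% are shared with Cdc23 on the opposite strand, whose counts were larger, and 11.1% of those of Prc1 with Rccd1.

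The exit from mitosis is driven by the anaphase promoting complex. Ube2c, the enzyme that supplies it with ubiquitin (ENSMUSG00000001403, chromosome 2, 164769898 to 164778822), was at 3.16, 2.89, 1.98 and 2.09 CPM in LIRKO chow and 0.258 to 1.54 (median 0.701) in Ctrl chow. It was at 0.894, 0.419, 0.148, 2.02 and 0.396 in Ctrl HFD and 0.348, 0.392 and 0.175 in LIRKO HFD. The chow groups did not overlap, but the difference did not pass (log2 change 1.73, SE 0.52, adjusted p = 0.0635, edgeR). Ube2c fell on HFD in LIRKO (log2 change −3.03, SE 0.71, adjusted p = 0.0318, edgeR), a ratio of 8.18 between LIRKO chow and LIRKO HFD. Cdc20, the activator that brings substrates to the complex (ENSMUSG00000006398, chromosome 4, 118432901 to 118437352), was at 1.81, 2.12, 2.04 and 1.81 CPM in LIRKO chow, 0.368 to 1.55 (median 1.09) in Ctrl chow, 0.943, 0.559, 0.592, 2.30 and 0.792 in Ctrl HFD and 0.319, 0.676 and 0.526 in LIRKO HFD. LIRKO chow was above Ctrl chow and LIRKO HFD in every library, and neither difference passed (log2 change 0.94, SE 0.39, adjusted p = 0.196 and log2 change −1.92, SE 0.50, adjusted p = 0.0543, edgeR). Foxm1, the transcription factor that activates many of these genes in G2 (ENSMUSG00000001517, chromosome 6, 128362967 to 128376146), was at 3.01, 2.82, 2.14 and 2.58 CPM in LIRKO chow, 0.974 to 2.31 (median 1.56) in Ctrl chow, 1.69, 1.72, 0.947, 2.36 and 1.72 in Ctrl HFD and 0.929, 0.915 and 1.10 in LIRKO HFD. The chow groups overlapped (log2 change 0.70, SE 0.26, adjusted p = 0.134, edgeR), whereas Foxm1 fell on HFD in LIRKO (log2 change −1.42, SE 0.32, adjusted p = 0.0276).

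Levels can be compared between genes only per length of exon. On that scale the list held 4 genes well above the rest in Ctrl chow: Spc25 at 54.8 ± 9.34 CPM per kb (SD, n = 6), Aurka at 3.99 ± 1.19, Incenp at 2.48 ± 0.408 and Mad2l1 at 1.39 ± 0.271. Cks2 followed at 0.767 ± 0.260, and the other 35 tested genes ran from 0.583 down to 0.0317. The 4 genes at the top had log2 changes of −0.26 to 0.05 from Ctrl chow to LIRKO chow, and the other 36 of 0.45 to 2.03. The sign of the chow difference of Mad2l1 and of Incenp, and of the HFD difference of Aurka in LIRKO, changed when 1 library was left out.

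**Figure D3:**
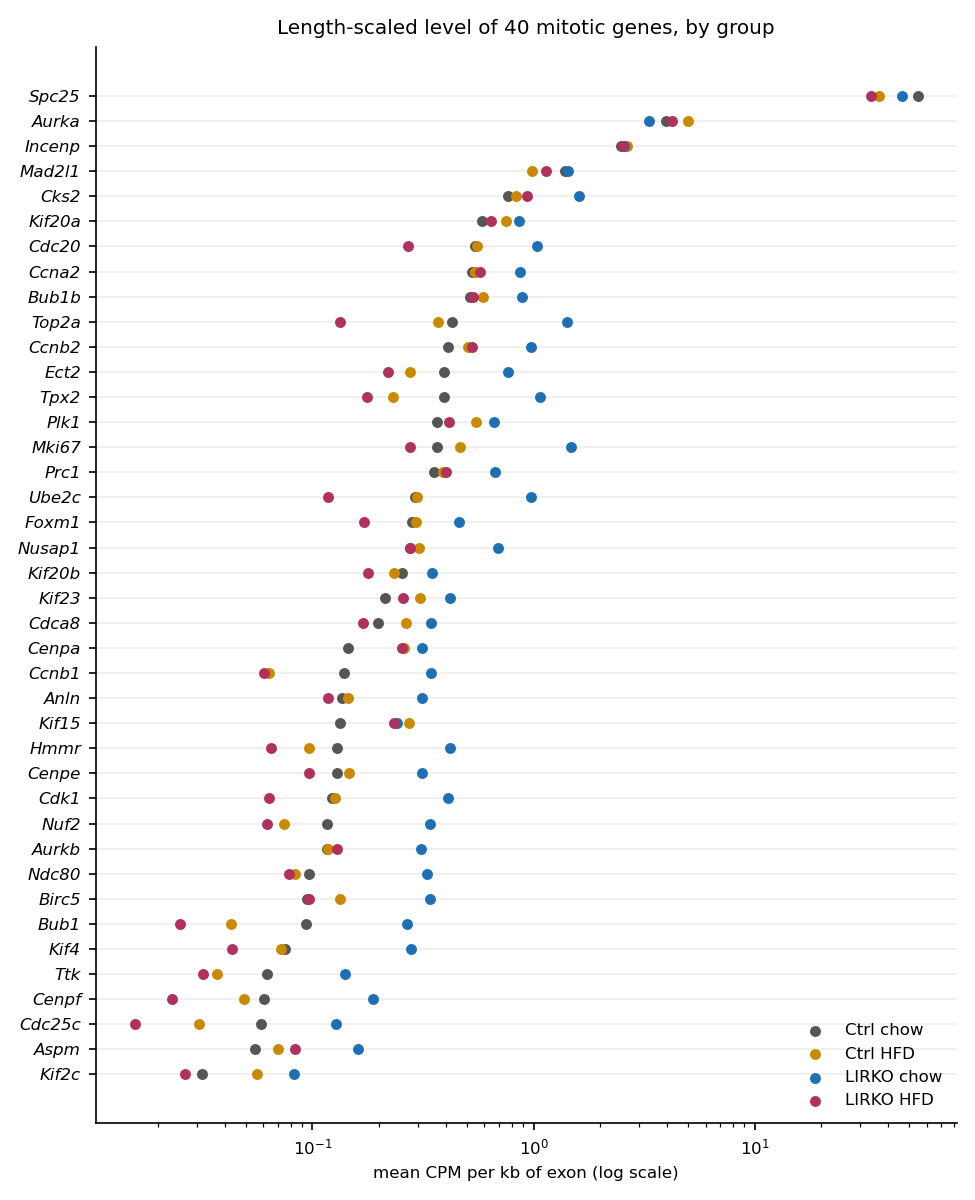
Mean CPM per kb of exon is plotted on a log axis for 40 mitotic genes, ordered by their level in Ctrl chow, with 1 point per group. LIRKO chow is the highest point for most genes, while Spc25, Aurka, Incenp and Mad2l1, at the top, hold their 4 points close together.

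Within Ctrl, 2 of the 40 genes passed between the diets: Kif15 rose and Spc25 fell on HFD, where 9.93% of all genes passed in either direction. With only the groups compared 0 of the 40 passed, where 0.00585% of all genes did. The median log2 change was 0.06 over the list and 0.04 over all genes. Without Ctrl HFD replicate 4, 7 genes passed, where 13.0% of all genes passed in that fit: Kif15 was higher and Cdk1, Ccnb1, Cenpf, Nuf2, Tpx2 and Hmmr were lower on HFD. Leaving out 1 library gave 0 genes without Ctrl chow replicate 1, 2, 5 or 6 or Ctrl HFD replicate 1 or 2, 1 without Ctrl chow replicate 3, 5 without Ctrl chow replicate 4 (20.1% of all genes), 3 without Ctrl HFD replicate 3 or 5, and medians from −0.23 to 0.19. Of all genes, 0.359% to 6.58% passed in the fits with 0 genes, 8.35% in that with 1, and 19.8% and 15.7% in those with 3.

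Between the genotypes on HFD, 0 of the 40 genes passed in edgeR and 0 in DESeq2, where 0.508% of all genes passed in edgeR. At an unadjusted p under 0.05 there were 3, and the share of all genes under that limit was not counted. The median log2 change was −0.29, against −0.04 over all genes. Top2a (−1.47, SE 0.58, adjusted p = 0.482, edgeR), Cdc20 (−1.03, SE 0.48, adjusted p = 0.63) and Foxm1 (−0.78, SE 0.31, adjusted p = 0.473) were the 3 genes under that unadjusted limit, and Mki67 had −0.75 (SE 0.41, adjusted p = 0.704). Apart from that of Foxm1, the size of these values depended on Ctrl HFD replicate 4. Without it the median was −0.009, and Top2a (−0.65), Cdc20 (−0.49) and Mki67 (−0.28) were nearer 0 but still below it. Foxm1 stayed between −0.93 and −0.62 under all alternatives. Without Ctrl HFD replicates 1 and 2 the median was −0.54.

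The genotype by diet interaction asks whether the LIRKO difference on HFD departs from that on chow. Its median log2 value was −1.44 over the 40 genes and −0.02 over all genes. In edgeR 0 of 40 passed, and 0.00519% of all genes passed. At an unadjusted p under 0.05 there were 27 of the 40. The share of all genes under that limit was not counted, so this count alone does not single out mitotic genes. DESeq2 called 4, Mki67, Top2a, Cdk1 and Cenpe, where it called 0.218% of all genes. Their edgeR interaction values were −2.77 (SE 0.55, adjusted p = 0.136) for Mki67, −3.20 (SE 0.76, adjusted p = 0.373) for Top2a, −2.74 (SE 0.67, adjusted p = 0.396) for Cdk1 and −1.88 (SE 0.39, adjusted p = 0.167) for Cenpe. Ndc80 had −1.86 (SE 0.56), Ube2c −3.06 (SE 0.86) and Foxm1 −1.47 (SE 0.40).

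Other genes of the cell cycle were counted in 8 lists that do not hold the 41. On chow, 13 of the 175 genes tested from these lists were higher in LIRKO and 0 lower, or 7.43%, beside the 2.95% of all genes. On HFD in LIRKO, 9 fell and 0 rose, or 5.14%, beside 0.975%. Of 32 other kinetochore and centromere genes, 1 rose on chow in LIRKO, the scaffold Knl1 (log2 change 1.36), and Knl1 (−1.96) and Knstrn (−1.05) fell on HFD in LIRKO. The median of that list was 0.41 on chow. Of 20 tested spindle, motor and centrosome genes 4 rose on chow, Cep55 (1.80), Dlgap5 (1.72), Ckap2l (1.47) and the centriole kinase Plk4 (0.72), and Dlgap5 (−2.45), Ckap2l (−2.36) and Ckap2 (−2.28) fell on HFD in LIRKO. Among 9 tested cytokinesis genes, Cep55, which is in both lists, Shcbp1 (1.33) and Depdc1a (2.71, from a mean of 0.0449 CPM) rose, and Shcbp1 (−1.49) fell on HFD in LIRKO. Cep55 and Depdc1a met the filter on low counts only through the LIRKO chow libraries, where they were high, and their calls are no support; without such genes 11 of 170 were higher on chow. Condensins compact chromosomes. In a list of 17 genes drawn up for condensins and chromosome structure, Ncapg (1.37), Ncaph (2.03), Cdca3 (1.02) and Cdca5 (1.48) rose on chow. From the same list Hmgb2 (−0.88) and Cdca2 (−1.77) fell on HFD in LIRKO. Cdca3 was counted here and not among the regulators of mitotic entry and exit below, so the counts of both lists depend on where it is placed.

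The next lists lie upstream or earlier in the cycle. Of 25 regulators of mitotic entry and exit, 1 rose on chow, Gtse1 (0.90), which is near the share of all genes, and the list median was 0.07. Of 20 DREAM, MuvB, RB and E2F genes, 0 passed in edgeR, with 3 at an unadjusted p under 0.05 and a median of −0.03. The 2 of them with the highest levels, the histone chaperone Rbbp4 and the E2F partner Tfdp1, had log2 changes of −0.09 and 0.23. Of 38 replication and S phase genes, 0 passed on chow, with 9 at an unadjusted p under 0.05 and a median of 0.08, and Dtl, which targets replication licensing factors for destruction, fell on HFD in LIRKO (−2.89). For these lists too, the share of all genes under the unadjusted limit was not counted. Of 15 G1 cyclins and CDK inhibitors, 1 rose on chow, Ccng2 (0.78), a cyclin linked to cell cycle arrest. Between the diets in Ctrl, 11 of the 175 genes passed, or 6.29%, fewer than the 9.93% of all genes, and with only the groups compared 1 of 17092 genes passed in all. Of the kinetochore list 4 of 32 were lower on HFD, Mad1l1 (−0.76), Bub3 (−0.41), Mis12 (−0.54) and Zwint (−0.46), as were 1 of 25 entry and exit genes (Anapc10, −0.57), 2 of 38 replication genes (Pcna, −0.71, and Rfc4, −0.67) and 1 of 15 G1 genes (Ccnd1, −0.61). Of the spindle list 2 of 20 were higher, Kif22 (0.99) and Psrc1 (1.23), and of the cytokinesis list 1 of 9 (Cit, 1.38).

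Markers of other cell types were summed in each library, because a sorted fraction can hold cells other than beta cells. The 8 endothelial markers together were at 13.4 and 16.3 CPM in LIRKO chow replicates 1 and 2 and at 189 and 162 in replicates 3 and 4, against 39.3 to 243 in Ctrl chow, and on HFD at 180.0 to 365 in Ctrl and 268 to 359 in LIRKO. The mitotic medians were 2.41 and 2.63 CPM in LIRKO chow replicates 1 and 2 and 2.16 and 2.24 in replicates 3 and 4, and Mki67 was likewise at 17.9 and 16.9 CPM against 12.8 and 12.1. Many other values differed along the same pairs of libraries. Replicates 3 and 4 also held more alpha cell (1856 and 2029 CPM against 411 and 409), pancreatic polypeptide cell (394 and 325 against 144 and 127) and stellate markers (10.5 and 8.48 against 0.686 and 0.624). They held less of the acinar (38.3 and 19.1 against 167 and 211) and lymphocyte markers (1.08 and 1.04 against 2.25 and 2.15). Their beta cell sums were lower as well (184000 and 170700 against 207000 and 221000). Macrophage (223 and 198 against 113 and 114) and delta cell sums (218.5 and 190 against 169 and 180) were higher in them. So were the duct (1180 and 1112 against 988.5 and 1052) and erythroid sums (0.659 and 0.329 against 0.196 and 0.150), while the Schwann cell sums overlapped. Among mitotic genes, Bub1b, Incenp, Kif15 and Prc1 were each higher in both replicates 3 and 4 than in replicates 1 and 2. How these differences relate was not tested. The 8 macrophage markers summed to 113 to 223 CPM in LIRKO chow and 148 to 263 in Ctrl chow, and on HFD to 174 to 436 in Ctrl and 288 to 352 in LIRKO. On chow 0 of 8 endothelial and 0 of 8 macrophage markers rose in LIRKO, and 1 macrophage marker, Lyz2, was lower (log2 change −1.13). Lyz2 rose on HFD in LIRKO (1.47), and 0 of the 8 endothelial markers passed. Yet all 8 endothelial and all 8 macrophage markers had log2 changes above 0 on HFD in LIRKO. Their medians were 1.72 (endothelial) and 1.45 (macrophage), against 0.03 over all genes. The 6 stellate markers summed to 14.4 to 23.9 CPM in LIRKO HFD against 0.624 to 10.5 in LIRKO chow, with log2 changes above 0 for all 6 and 0 past the threshold. The 3 Schwann cell markers, of which 1 was tested, summed to 10.5 to 14.7 CPM against 6.58 to 8.79. The sums of these 4 lists did not overlap between LIRKO HFD and LIRKO chow, while those of the alpha cell list (483 to 3636 against 409 to 2029 CPM) and the pancreatic polypeptide cell list (378 to 977 against 127 to 394) overlapped. Of the 9 beta cell markers 1 fell, the transcription factor Mafa (log2 change −2.24, adjusted p = 0.0483, edgeR), and their sums overlapped at 109800 to 208800 against 170700 to 221000 CPM. Their log2 changes were below 0 in 7 of the 9, with a median of −0.38, against 0.03 over all genes. The fall of the mitotic genes on HFD in LIRKO came with these differences, whose part in the result was not tested.

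On chow, 1 gene passed in each of the following lists. In the duct list it was Spp1, which was higher in LIRKO (log2 change 2.10), while the 4 tested markers ran down to −0.57 and their sums overlapped (989 to 1180 CPM in LIRKO chow, 891 to 1346 in Ctrl chow). In the alpha cell list it was Ttr (0.85), while 3 of the 5 markers were below 0, the median was −0.13 and the sums overlapped (409 to 2029 and 424 to 1873 CPM). Pyy, a peptide gene of pancreatic polypeptide cells, fell (−1.76), with list sums of 127 to 394 CPM in LIRKO chow and 261 to 1937 in Ctrl chow. Pdx1, a transcription factor of beta cells, fell as well (−0.90). The 9 beta cell markers summed to 170700 to 221000 CPM in LIRKO chow and 142400 to 233700 in Ctrl chow, and the sorted cells carried this beta cell signature in all 18 libraries. These sums are weighted to Ins1 and Ins2, which made up 8.97% to 18.7% of the counts of a library. Of the 9 markers 8 had log2 changes below 0 on chow, with a median of −0.50, against −0.02 over all genes. The stellate list summed to 0.624 to 10.5 CPM in LIRKO chow and 0.789 to 12.8 in Ctrl chow, and the lymphocyte list to 1.04 to 2.25 and 2.05 to 3.71. Ctrl HFD replicate 4, the library with the highest mitotic level of its group, had the highest sums of its group for 6 of the 12 marker lists: alpha cell (4266 CPM), pancreatic polypeptide cell (1594), duct (1056), macrophage (436), delta cell (303) and erythroid (3.34) markers. It had the lowest sums of acinar (24.6) and lymphocyte (1.45) markers. In Ctrl HFD replicate 3 the same lists summed to 3989 (alpha cell), 953 (pancreatic polypeptide cell), 972 (duct), 376 (macrophage), 175 (delta cell) and 0.207 CPM (erythroid). The mitotic median was 0.829 CPM in replicate 3 and 2.13 in replicate 4. The part of other cell types in Ctrl HFD replicate 4, and of the markers that changed on chow, was not tested.

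**Figure D4:**
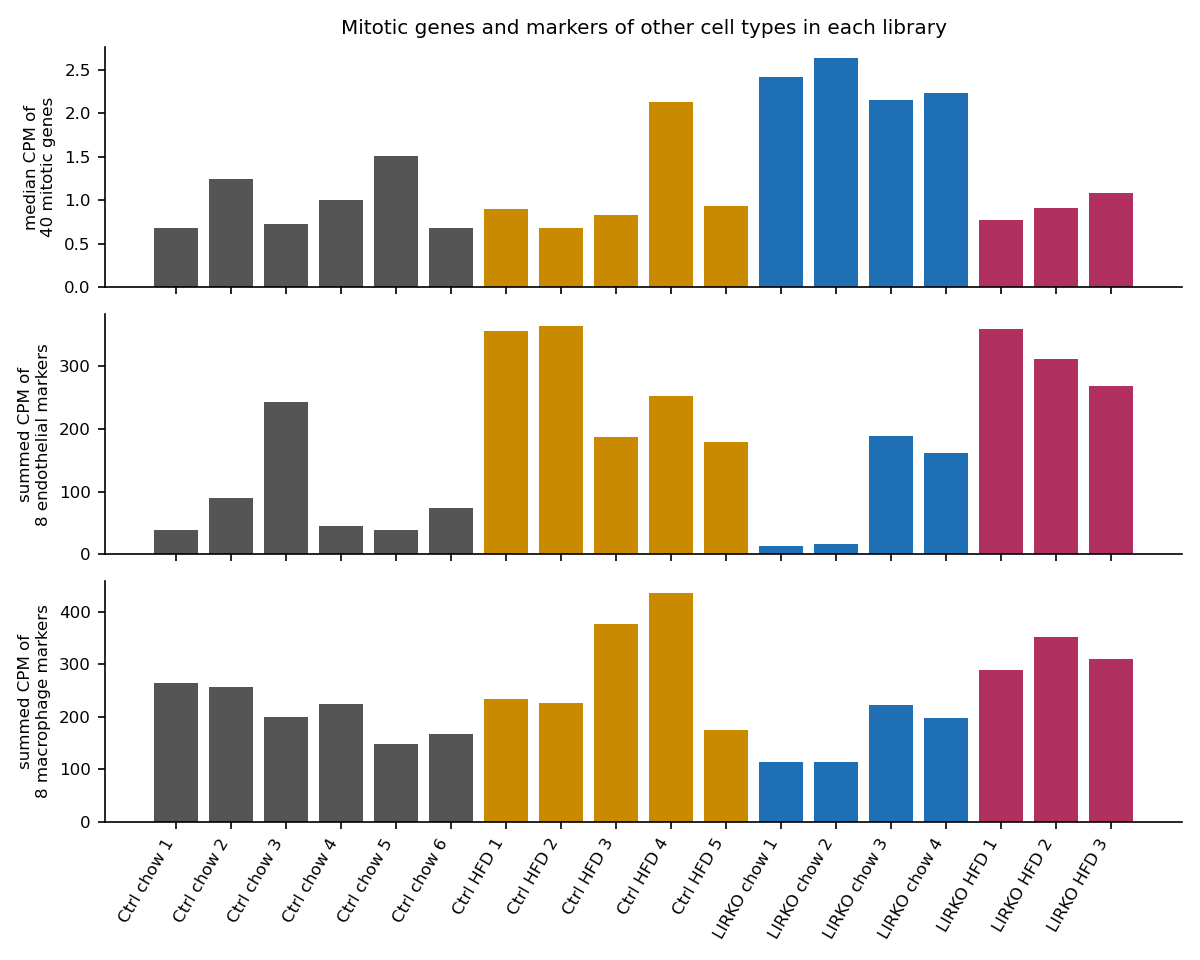
For each of the 18 libraries the panels plot, from the top, the median CPM of 40 mitotic genes, the summed CPM of 8 endothelial markers and the summed CPM of 8 macrophage markers. LIRKO chow has the highest mitotic medians (2.16 to 2.63 CPM), followed by Ctrl HFD replicate 4 (2.13), while the endothelial sum differs between LIRKO chow replicates 1 and 2 and replicates 3 and 4.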

How the data were processed

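Gene counts of 18 libraries of sorted mouse beta cells were used. The deposited table holds counts, that is whole numbers of reads for each Ensembl gene and library, not normalised; the submitters' processing notes name STAR, featureCounts and GRCm38, and the labels' protocols a directional library kit. The sources used here do not give the annotation release or whether counting used the strand. Symbols and coordinates were taken from GENCODE M21, which matched 52403 of 53090 IDs. In R 4.3.3, edgeR 4.0.16 removed low counts (filterByExpr by group, 19284 genes left), scaled libraries by TMM and fitted a quasi-likelihood model with 4 group terms to all libraries. Its common dispersion had a square root of 0.314. Tests are two-sided, with Benjamini-Hochberg adjustment over all genes tested and a threshold of 0.05. edgeR gives no SE; the SE printed is the size of the log2 change divided by the square root of the F statistic. The procedure was tested on simulated counts in which every library was drawn independently. That simulation holds no pairs as alike as those of LIRKO chow, so it cannot show how the calls behave with them. Alternatives were DESeq2 1.42.0, RLE factors, no filter, a mean CPM of at least 1, only the groups compared, each library left out, LIRKO chow pairs summed, and Ctrl HFD replicates 1 and 2 left out.

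The 41 genes and the other lists were chosen with earlier results of these data known. Values in every library are given for genes that passed in any comparison and for Mki67, Cdk1, Ccnb1, Plk1, Aurkb, Foxm1, Cdc20 and Birc5. From other lists up to 4 genes that passed are named, or the 2 with the highest level. Plk4, Cdca3, Cdca5, Mis12, Zwint, Kif22 and Psrc1, and the marker genes, were named after their values were seen. Replicates are numbered in the order of the deposited samples.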

Additional observations from a re-analysis of the deposited data

Results flagged for a closer look

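For 25 mitotic genes, the CPM of the libraries was checked in the 3 groups of 4 to 6 libraries for a value far from the others, by Dixon's ratio. Of 75 sets, 15 were flagged, where chance flags about 5%. In 11 of the 15 the library was Ctrl HFD replicate 4, which was the highest of its group: Mki67 9.79, Top2a 9.04, Cdk1 1.76, Cenpf 2.46, Nuf2 1.13, Bub1 0.504, Aurkb 0.882, Kif4 1.10, Tpx2 2.55, Hmmr 1.48 and Cdc20 2.30 CPM. The other 4 libraries of that group ran from 2.96 to 3.77 CPM for Mki67 and from 1.44 to 2.53 for Top2a. These genes come from 1 library and are not independent flags.

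The remaining 4 sets name other libraries. Ctrl chow replicate 4 was the highest of its group for Plk1 (1.60 CPM, others at most 0.832) and for Cks2 (0.878, others at most 0.566). LIRKO chow replicate 2 was the highest for Kif4 (1.82, others at most 1.45). LIRKO chow replicate 1 was the lowest for Ect2 (3.53, others at least 4.31).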

How the results depend on the processing

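On chow, 14 mitotic genes passed for LIRKO against Ctrl, where 5.15% of all genes passed in either direction. The count was 23 with DESeq2 (8.55% of all genes), 23 with only the groups compared (9.52%) and 22 with Ctrl HFD replicates 1 and 2 left out (9.32%). It was 9 with a mean CPM of at least 1 (26 genes tested, 6.49% of all genes) and 1 with the LIRKO chow pairs summed (0.976%). With 1 library left out it was 4 to 17 (2.25% to 4.79% of all genes). For HFD against chow in LIRKO, 15 passed. The count was 29 with only the groups compared, 8 with a mean CPM of at least 1 and 0 with the pairs summed, and 0 to 13 with 1 library left out. The shares of all genes in these LIRKO fits are not given here, so these counts alone do not single out mitotic genes. The median log2 change was −0.91 with a mean CPM of at least 1. For HFD against chow in Ctrl, 2 passed. The count was 0 with no filter (1.28% of all genes), with only the groups compared (0.00585%), with the pairs summed (0.577%) and with Ctrl HFD replicates 1 and 2 left out (0.180%). It was 0 to 7 with 1 library left out (0.359% to 20.1% of all genes), beside 9.93% of all genes in the main fit. For the interaction, 4 passed with DESeq2, and the median was −1.84 with those 2 Ctrl HFD libraries left out. With 1 library left out, Mad2l1 ranged from −0.043 to 0.12 and Incenp from −0.026 to 0.11 on chow (log2), and Aurka from −0.077 to 0.58 on HFD in LIRKO. Of 72 named gene results past the threshold, 69 did not pass with the pairs summed, 1 (Mki67 on chow) passed under every alternative and 0 changed sign. Summing the pairs leaves 2 LIRKO chow libraries; otherwise the cause was not tested. No paired analysis was possible because the labels give no replicate numbers. Of the 41 genes, 35 had fewer than 100 reads in more than 9 of the 18 libraries, which limits the precision of single values.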
